A study of Mus musculus with 12 samples.

Results

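The 7 genes described here, Hes1, Hes5, Hes6, Hey1, Hey2, Heyl and Nrarp, encode nuclear effectors of the Notch pathway or close relatives of them. They were taken by name from a table of 22869 gene symbols, and each had a single transcript row. Their RNA was measured by sequencing in cochlear epithelium, the lining of the hearing part of the inner ear, of C57BL/6 mouse embryos at embryonic day 16.5. The groups were 3 wild-type embryos (Esrp1+/+, control) and 3 embryos without functional copies of the epithelial splicing regulator gene Esrp1 (Esrp1-/-, knockout). The epithelium was dissected by hand, collagenase was used to strip off mesenchyme, and the pair of cochleae of each embryo was pooled. PolyA RNA of each embryo went into 2 directional libraries, whose reads stand in 1 column of the table, so that the 6 embryos are the replicates.

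In the Notch pathway a Delta or Jagged ligand on a cell binds a Notch receptor on its neighbour. The receptor is cleaved by gamma-secretase, and its intracellular domain enters the nucleus, where it joins the DNA-binding protein RBPJ and Mastermind proteins to switch on target genes. Many of these targets are Hes and Hey genes, whose products are basic helix-loop-helix repressors. In the developing organ of Corti, hair cells carry the ligands Dll1 and Jag2, and the supporting cells next to them use Hes and Hey repressors to keep the hair cell gene Atoh1 off.

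The genes lie on 6 chromosomes in the RefSeq annotation of GRCm38, which is the same assembly as mm10. Hes5 (chr4:154960626-154962372, 3 exons) and Heyl (chr4:123233556-123249870, 5 exons) are on the chromosome of Esrp1, at 143.6 and 111.8 Mb from it. Hes1 is at chr16:30065357-30067796 (4 exons), Hes6 at chr1:91411483-91414038 (4 exons) and Hey1 at chr3:8663359-8667038 (5 exons). Hey2 is at chr10:30832359-30842783 (5 exons), and Nrarp is a gene of 1 exon at chr2:25180758-25183339.

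Promoter windows were found in the RefSeq table for 4 of the 7 genes: Hes5, Hes6, Hey2 and Nrarp. The letters bound by RBPJ, GTGGGAA or TTCCCAC on the opposite strand, were searched in the 250 bases before each start. Hes5 held 2 matches and Hey2 held 1, while the windows of Nrarp and Hes6 held none. Among all 32851 windows of that length, 5.42% held at least 1 match and 0.161% held at least 2. The windows of Hes5 (chr4:154960673-154960922, plus strand) and Hey2 (chr10:30842784-30843033, minus strand) are shown because they hold these matches, which are in capitals, and because these genes had the lowest and the highest log2 fold change of the 7.
Hes5: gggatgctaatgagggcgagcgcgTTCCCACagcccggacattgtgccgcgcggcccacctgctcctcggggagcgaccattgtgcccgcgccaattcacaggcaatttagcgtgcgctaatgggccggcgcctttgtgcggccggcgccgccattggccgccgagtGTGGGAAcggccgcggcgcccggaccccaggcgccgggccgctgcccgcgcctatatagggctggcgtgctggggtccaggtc
Hey2: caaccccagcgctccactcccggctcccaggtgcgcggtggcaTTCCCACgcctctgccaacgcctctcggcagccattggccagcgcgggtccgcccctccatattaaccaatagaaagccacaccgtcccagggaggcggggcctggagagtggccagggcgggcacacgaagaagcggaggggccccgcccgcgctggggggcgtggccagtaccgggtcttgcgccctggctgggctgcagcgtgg
In Hes5 the matches lie 226 to 220 and 83 to 77 bases before the start and face opposite ways. In Hey2 the match lies 207 to 201 bases before the start. For Hes5, the RefSeq gene span given above begins ahead of this window. A match says only that these letters are present. For the motifs of Hes and Hey proteins themselves, Nrarp held 1 CACGTG, which 6.02% of all windows held. CACNAG, searched on both strands, matched at 2 places in Nrarp and at 1 in a window of Hes6, and 36.7% of all windows held it. With the 50 bases after the start added to each window, Hes5 and Hey2 each held 2 RBPJ matches, and Nrarp and Hes6 none. Among all windows of these 300 bases, 6.38% held at least 1 RBPJ match and 0.256% at least 2.

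The depth on genes ran from 12547301 to 21568516 reads, and all 7 effectors were among the 14717 genes tested. In TMM-scaled CPM, read counts relative to library size, Esrp1 spanned 102 to 197 in controls but 27.2 to 39.1 in knockouts, and it fell (adjusted p = 0.0354, edgeR's quasi-likelihood test). Without control 3 or any 1 of the knockouts the adjusted p of Esrp1 was 0.122 to 0.158 in edgeR, with log2 fold changes of -2.18 to -1.93. Control 1 and knockout 1 stood apart in the immediate early gene Fos, with 153 and 64.6 CPM against 1.00 to 7.27 CPM in the other embryos. The Y-linked Ddx3y stood at 94.97 CPM in knockout 2 and 81.9 CPM in knockout 3, where Xist was at most 0.27 CPM, and under 1 CPM in the other 4 embryos. Members are therefore also given below by embryo.

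Levels between genes were compared as FPKM, the deposited unit scaled by transcript length. In controls Hey1 (15.7 ± 2.27 FPKM, SD, n = 3) and Hes6 (15.6 ± 1.21 FPKM) stood highest, and their ranges over embryos overlapped. Nrarp (7.64 ± 0.836 FPKM) and Hey2 (7.27 ± 0.499 FPKM) came next, apart from Hes6 but overlapping each other. Hes1 (5.06 ± 2.15 FPKM) overlapped Hey2 above it and Heyl (3.35 ± 1.03 FPKM) below it. Hes5 was the lowest of the 7 at 1.67 ± 0.534 FPKM, with a range apart from that of Heyl.

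The order in knockouts was Hes6 (13.8 ± 3.13 FPKM), Hey1 (13.1 ± 1.95 FPKM), Hey2 (8.51 ± 1.40 FPKM), Nrarp (7.28 ± 1.55 FPKM), Hes1 (5.05 ± 0.489 FPKM), Heyl (3.55 ± 0.686 FPKM) and Hes5 (0.662 ± 0.306 FPKM). Hes6 overlapped Hey1, and Hey2 overlapped Nrarp. The other neighbours in this order had ranges apart. Hes5 was thus the least abundant effector in both groups, and the places exchanged between the groups were those of neighbours that overlapped.

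**Figure D1:**
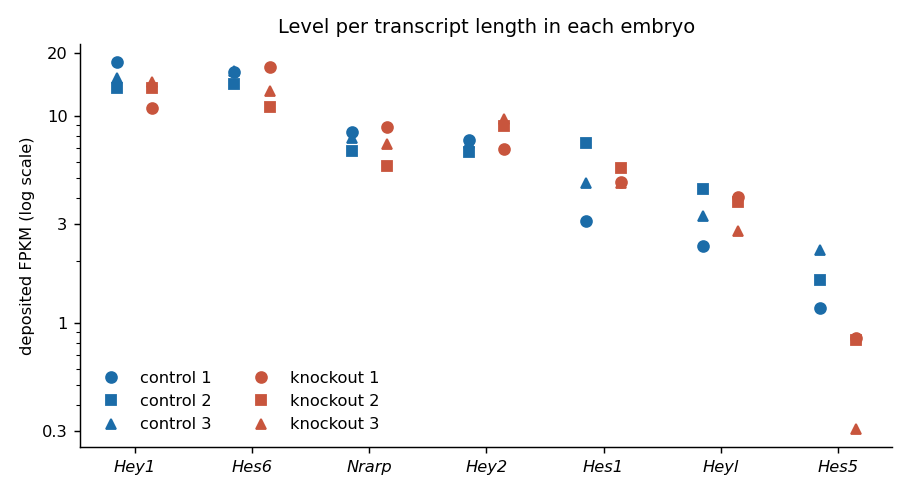
Level of each effector as deposited FPKM (log axis) in each embryo, with control embryos in blue and knockout embryos in red. Hes6 and Hey1 lie at the top and Hes5 at the bottom in both groups, at 1.67 ± 0.534 and 0.662 ± 0.306 FPKM (SD, n = 3).

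None of the 7 effectors passed edgeR's quasi-likelihood test at an adjusted p under 0.05 (0 of 7), as 0.149% of all genes tested did in either direction and 0.0679% did downward. At an unadjusted p under 0.05 stood 1 of 7, Hes5, as did 4.77% of all genes. DESeq2 called 0 of 7 and 1.01% of all genes with an adjusted p. The groups did not overlap for 1 of 7, again Hes5, with knockouts lower, against 9.84% of all genes in either direction and 4.44% with knockouts lower. The log2 fold changes, knockout over control, were positive for 2 and negative for 5, with a median of -0.12 beside 0.00 over all genes. Here and below, fewer cells of a type and less RNA per cell cannot be told apart in bulk tissue.

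Hes5, the repressor that in the cochlea marks Deiters' cells and the neighbouring lesser ridge, had 3.64, 4.35 and 6.197 CPM in controls 1, 2 and 3. It had 2.13, 2.31 and 0.934 CPM in knockouts 1, 2 and 3. Every knockout lay below every control, and knockout 3 was the lowest of the 6. The knockout mean was 37.9% of the control mean. On the log2 scale the difference was -1.39 ± 0.40 (SE, 95% interval -2.30 to -0.49, adjusted p = 0.512, edgeR's quasi-likelihood test), which did not pass over all genes. Its p ranked 207th among the 14717 genes. The exact permutation test (two-sided, on CPM) returned p = 0.10, the lowest value possible with 3 embryos a group; for the other effectors it ran from 0.4 to 1.

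These Hes5 levels rest on few reads, 58, 96 and 115 in the controls and 28, 43 and 14 in the knockouts. The summed reads, 269 against 85, gave a ratio of control to knockout, scaled for depth, of 2.61 (exact 95% interval 2.04 to 3.38, counting error only). Counting error alone put control 1 at 2.76 to 4.70 CPM and knockout 1 at 1.42 to 3.09 CPM, so those intervals overlap. For knockout 3 the interval was 0.511 to 1.57 CPM, below that of each control. The highest embryo was 6.63 times the lowest for Hes5, and 1.61 to 2.07 times for the other effectors.

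In the authors' deposited table Hes5 had a log2 fold change of -1.43 with an FDR of 0.0813, and each of the other 6 effectors an FDR of 1. DESeq2 gave Hes5 an adjusted p of 0.0960. The adjusted p of Hes5 over 16 other settings ran from 0.0960 to 1.00, and its log2 fold change was negative in each. With Xist as a covariate (log2 fold change -1.11, adjusted p = 0.334) edgeR's unadjusted p no longer lay under 0.05. Without knockouts 2 and 3 the log2 fold change was -1.15. Xist was at most 0.27 CPM in knockouts 2 and 3 and at least 1098 CPM in every other embryo. Both settings therefore compare mainly knockout 1 with the controls and are not separate checks.

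**Figure D2:**
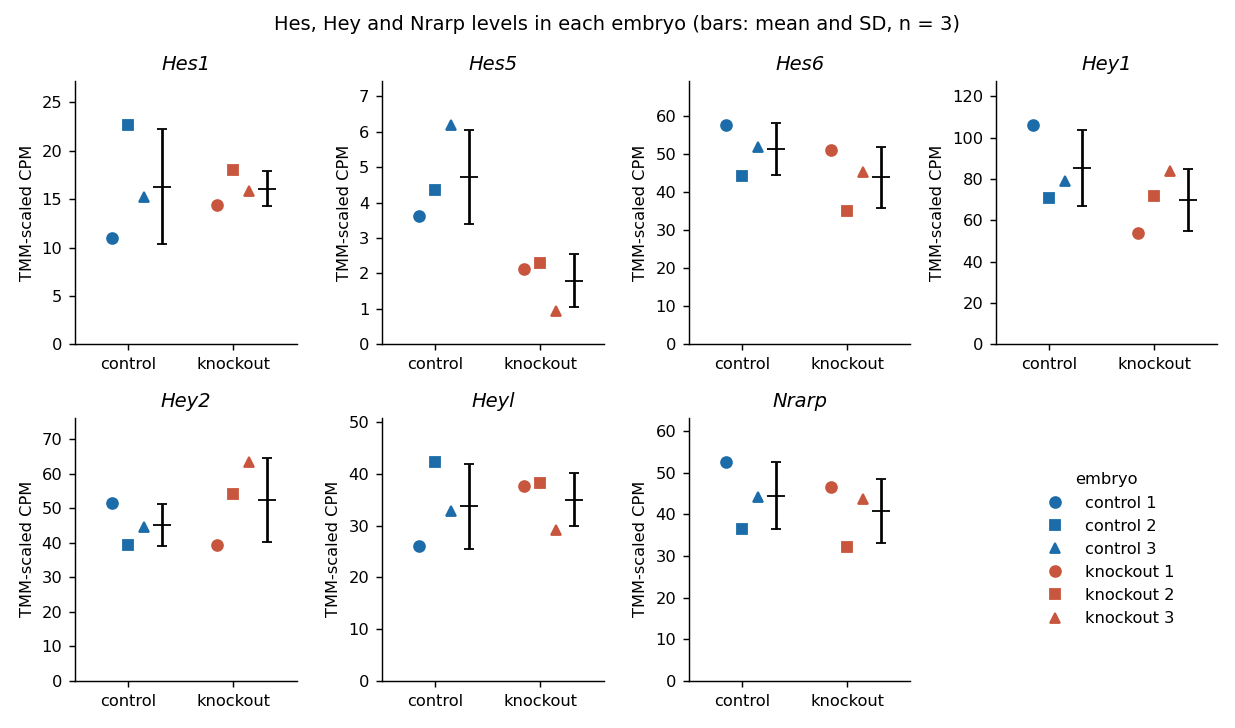
TMM-scaled CPM of each effector in each embryo, with 1 panel per gene, controls in blue, knockouts in red and horizontal lines at the group means. The 3 knockouts lie below the 3 controls for Hes5 (0.934 to 2.31 against 3.64 to 6.197 CPM), while in the other 6 panels the groups overlap.

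Hes1, the Notch target of the greater epithelial ridge and also of many other tissues, had 10.97, 22.7 and 15.2 CPM in the controls. In the knockouts it had 14.4, 17.98 and 15.8 CPM. All 3 knockouts lay within the range of the controls, which was set by a low control 1 and a high control 2. The log2 fold change was -0.02 ± 0.26 (SE, 95% interval -0.61 to 0.57, adjusted p = 0.995, edgeR's quasi-likelihood test). As a ratio of knockout to control, that interval runs from 0.654 to 1.49.

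Hes6, a relative expressed in hair cells and neurons that counteracts Hes1 and is not switched on by Notch in the usual way, had 57.7, 44.2 and 52.0 CPM in controls. The knockouts had 51.2, 35.2 and 45.4 CPM. The groups overlapped, with the embryo numbered 2 lowest in each. Its log2 fold change was -0.23 ± 0.17 (SE, 95% interval -0.62 to 0.17, adjusted p = 0.994, edgeR's quasi-likelihood test).

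Hey1, a repressor active in the prosensory domain from which hair and supporting cells arise, had 106, 70.8 and 79.2 CPM in controls. It had 53.8, 71.7 and 83.7 CPM in knockouts. Control 1 was the highest embryo and knockout 1 the lowest, and the other 4 lay between 70.8 and 83.7 CPM with both groups mixed. The log2 fold change of -0.29 ± 0.20 (SE, 95% interval -0.75 to 0.18, adjusted p = 0.994, edgeR's quasi-likelihood test) became 0.04 when both embryos numbered 1 were left out. With Xist as a covariate, which compares mainly knockout 1 with the controls, it was -0.68 (adjusted p = 0.178, edgeR).

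Hey2, the repressor that FGF signalling keeps on in pillar cells, had 51.6, 39.5 and 44.5 CPM in controls. In knockouts it had 39.4, 54.2 and 63.5 CPM. Knockouts 2 and 3 were above all controls, and knockout 1 (39.41 CPM) stood level with control 2 (39.46 CPM), the lowest control. The log2 fold change was 0.21 ± 0.19 (SE, 95% interval -0.22 to 0.65, adjusted p = 0.994, edgeR's quasi-likelihood test). Without both embryos numbered 1 it was 0.48 (adjusted p = 0.115, edgeR), where Xist-expressing controls stand against knockouts with Ddx3y, so that sex and genotype cannot be told apart. With Xist as a covariate, which compares mainly knockout 1 with the controls, it was -0.22.

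Heyl, a further Hey repressor, which is also a Notch target of vessel walls, had 26.1, 42.4 and 32.8 CPM in controls. Knockouts had 37.7, 38.2 and 29.2 CPM and lay within the range of the controls. Heyl had a log2 fold change of 0.05 ± 0.20 (SE, 95% interval -0.40 to 0.50, adjusted p = 0.994, edgeR's quasi-likelihood test).

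Nrarp, a small ankyrin-repeat protein gene that Notch switches on and whose product damps the receptor's activity, had 52.7, 36.6 and 44.1 CPM in controls. Knockouts had 46.5, 32.2 and 43.8 CPM. The groups overlapped, with the embryo numbered 2 lowest in each. For Nrarp the log2 fold change was -0.12 ± 0.19 (SE, 95% interval -0.55 to 0.30, adjusted p = 0.994, edgeR's quasi-likelihood test).

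**Figure D3:**
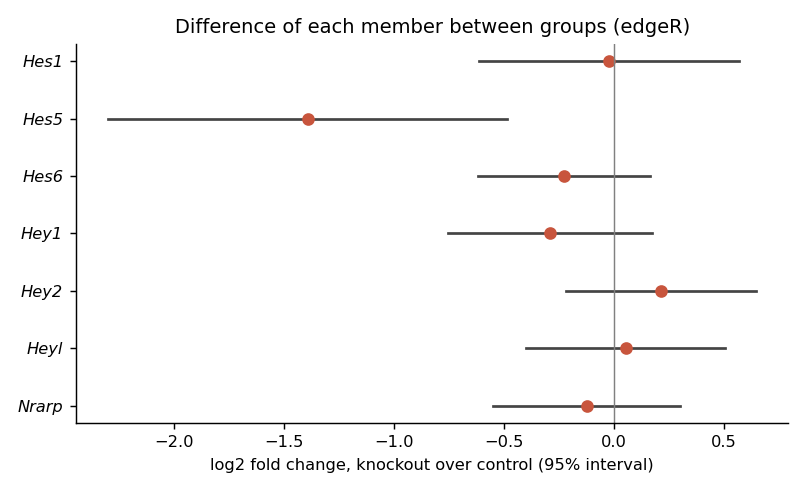
Log2 fold change, knockout over control, of each effector in edgeR's fit over all genes, with its 95% interval. The interval of Hes5 (-2.30 to -0.49) does not reach 0, those of the other 6 effectors do, and none of the 7 passed after adjustment over all genes.

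The rest of the pathway was read from lists, counted here with the 7 effectors left out. Of 75 genes tested, 0 passed edgeR's quasi-likelihood test over all genes, 6 had an unadjusted p under 0.05 (4.77% of all genes did) and DESeq2 called 1, Dlk1 (1.01% of all genes). Their log2 fold changes were positive for 28 and negative for 47, with a median of -0.04, and the groups did not overlap for 10, beside 9.84% of all genes. Of the genes named below, Notch1, Dll1, Numbl, Aes, Bhlhe41, Id4 and Gata3 had the smallest p of their pathway lists. The other genes named were not chosen by this rule.

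All 4 Notch receptors had negative log2 fold changes, with a median of -0.18 and 0 past the test. Their summed level was 642 CPM in knockout 1, below the controls (817 to 1139 CPM). It was 888 and 1010 CPM in knockouts 2 and 3, within the control range. Notch4 was instead lowest in knockout 3 (7.34 CPM). Notch1, the main receptor of the sensory epithelium, averaged 513.5 ± 110 CPM over the controls and 433.6 ± 133 CPM over the knockouts (SD, n = 3). Knockout 1 had 287 CPM of Notch1, and knockouts 2 and 3 had 469 and 545 CPM, within the control range of 435 to 640 CPM. The log2 fold change of Notch1 was -0.24 (adjusted p = 0.994, edgeR's quasi-likelihood test).

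The 8 ligand genes had a median of 0.02 and 0 passed in edgeR. Dll1, the Delta ligand of nascent hair cells, had 6.83, 6.35 and 7.17 CPM in controls and 3.66, 4.24 and 4.20 CPM in knockouts. Every knockout lay below every control. On the log2 scale Dll1 differed by -0.75 with an SE of 0.22 (adjusted p = 0.549 in edgeR's quasi-likelihood test). Dlk1, a Delta-like gene without the domain that activates receptors, was taken up after its values were seen. It had 16.3, 11.9 and 15.7 CPM in controls and 72.3, 27.1 and 18.5 CPM in knockouts, with knockout 1 far above the others (log2 fold change 1.42 ± 0.45, adjusted p = 0.624, edgeR's quasi-likelihood test).

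Of 25 genes that process ligands and receptors 0 passed (median -0.01), with the Numb relative Numbl at 0.25 ± 0.11 on the log2 scale. Among 19 genes of the transcription complex and its corepressors 15 were negative and 4 positive, with 0 past the test. Their median was -0.08, with the corepressor relative Aes at 0.22. The summed level of this list was 2430 CPM in knockout 1, below the controls (2710 to 2814 CPM). It was 2730 and 2871 CPM in knockouts 2 and 3. Of 6 other Hes, Hey and related genes 3 had enough reads to be tested. These were led by Bhlhe41 at 0.27, Hes7 reached at most 1.22 CPM, and Hes2 had no read in any embryo.

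The Id genes, which encode partners that hold helix-loop-helix activators inactive, and proneural genes such as Atoh1 formed a list of which 9 were tested and 0 passed. Id4 had 45.8, 35.1 and 37.8 CPM in controls and 31.8, 23.3 and 25.4 CPM in knockouts, with no overlap (log2 fold change -0.56 ± 0.17, adjusted p = 0.549, edgeR's quasi-likelihood test). Id1 and Id2, named after their values were seen, also had groups that did not overlap, with log2 fold changes of -0.58 and -0.54. So did Neurod1, a proneural gene that is also a neuron marker, but with knockouts higher (0.13 to 3.63 CPM in controls, 4.60 to 5.15 CPM in knockouts, log2 scale 1.49, adjusted p = 0.994 in edgeR). Id3 overlapped and had -0.23. Atoh1, on which Hes and Hey repressors act, had 16.5, 12.7 and 19.5 CPM in controls and 10.2, 9.18 and 14.3 CPM in knockouts, so the groups overlapped (log2 scale -0.53, adjusted p = 0.994, edgeR's quasi-likelihood test). Of 9 other reported Notch targets tested 0 passed (median -0.05). Among them Gata3, a transcription factor of the prosensory domain, had 451, 324 and 324 CPM in controls and 116, 259 and 262 CPM in knockouts, a log2 difference of -0.79 (adjusted p = 0.869, edgeR's quasi-likelihood test).

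**Figure D4:**
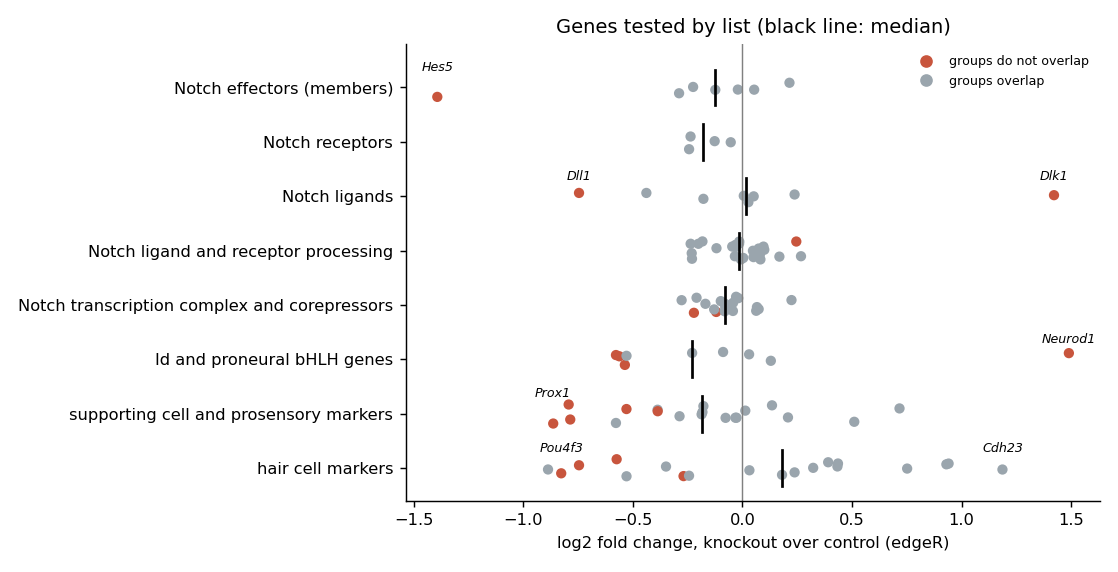
Log2 fold change, knockout over control, of each gene tested in 8 lists (the effectors, 5 Notch pathway lists and 2 sensory cell lists), with the median of each list as a black line and red points where control and knockout embryos do not overlap. Hes5 (-1.39) is farthest to the left, and the medians of the 8 lists drawn run from -0.23 to 0.18.

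Cell type markers were counted beside the effectors, since several cell types use Hes and Hey genes. Supporting cell and prosensory markers, whose cells are the known site of Hes5, had 14 of 19 log2 fold changes negative, a median of -0.18 and 0 past edgeR's test, with 7 at an unadjusted p under 0.05 beside 4.77% of all genes. Of these 7, 5 were lower in knockouts and 2 higher, the FGF target Etv4 (log2 fold change 0.51) and the prosensory ligand gene Fgf20 (0.72). The summed level was 1801 to 2027 CPM in controls and 1289 to 1787 CPM in knockouts, which do not overlap, but without Gata3 it was 1476 to 1576 and 1173 to 1525 CPM, which do. Knockout 1 was lowest in both sums, whereas Hes5 was lowest in knockout 3. Prox1, a transcription factor of supporting cells, had 43.0, 34.0 and 34.6 CPM across the controls and 11.4, 24.7 and 24.95 CPM in knockouts. The list shares Jag1, Lfng, Mfng, Sox9 and Gata3 with the Notch lists. The part of supporting cell number in the Hes5 values was not tested.

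Hair cell markers, whose cells send the Delta and Jagged signals, had 11 positive and 8 negative log2 fold changes of 19 (median 0.18) and 0 past the test. Their sums overlapped, at 534 to 601 CPM in controls and 535 to 675 CPM in knockouts. At an unadjusted p under 0.05 in edgeR stood 4 of the 19, beside 4.77% of all genes, 3 lower in knockouts and 1 higher. Pou4f3, a transcription factor of hair cells, had 12.0 to 17.5 CPM in controls and 6.50 to 11.9 CPM in knockouts. The 1 higher was Cdh23, with 16.3 to 30.6 CPM in controls and 24.7 to 88.4 CPM in knockouts, which overlap (log2 fold change 1.19). Cochlear epithelium markers, led by the otoconial gene Oc90, summed to 7017 to 13567 CPM in controls and 14296 to 18465 CPM in knockouts, without overlap. Without Oc90 the sums overlapped, at 3978 to 6948 and 4658 to 7968 CPM. Of 15 tested, 9 were positive and 6 negative, 0 passed in edgeR, and DESeq2 called 2, Oc90 and Otoa. Hes5 ran opposite to the full sum (r = -0.84, exact permutation p = 0.025, adjusted p = 0.30 over 84 relations, and rho = -0.94, exact permutation p = 0.0167, adjusted p = 0.28), with r = -0.98 without controls 2 and 3. Both measures had groups that did not overlap, so this relation cannot be told apart from the difference between the groups.

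Endothelial markers, whose cells use Hes1, Hey1, Hey2 and Heyl, summed to 304, 587 and 401 CPM in controls and to 428, 481 and 274 CPM in knockouts. The groups overlapped, and all 14 markers had reads, so that RNA of vessels was present in every embryo. Heyl followed these sums over the 6 embryos, with a Pearson r of 0.933 (exact permutation p = 0.0139) and a Spearman rho of 0.943 (exact permutation p = 0.0167). Without control 2 and knockout 3, the embryos farthest from the median, r was 0.972. This was 1 of 84 relations computed between the 7 effectors and 12 marker lists, and its adjusted p was 0.28. Hes1 followed them less closely (r = 0.745, exact permutation p = 0.0917, and rho = 0.600, exact permutation p = 0.242, with r = 0.966 without the same embryos). Hey1 ran against the endothelial sums (r = -0.60, exact permutation p = 0.203, and rho = -0.77, exact permutation p = 0.103). So did Hey2 (r = -0.71, exact permutation p = 0.128, and rho = -0.54, exact permutation p = 0.297). Hes1 lay closer to the neuron sum (r = 0.933, exact permutation p = 0.0167, adjusted p = 0.28, and rho = 0.771, exact permutation p = 0.103, with r = 0.884 without controls 1 and 2). By rank it also ran with mural cell markers (rho = 0.886, exact permutation p = 0.0333, adjusted p = 0.40) and against hair cell markers (rho = -0.94, exact permutation p = 0.0167, adjusted p = 0.28). The largest part of the mural sum in every embryo was Notch3 (125 to 224 CPM), which is also in the receptor list. Heyl had r = 0.255 (exact permutation p = 0.611) and rho = 0.657 (exact permutation p = 0.175) with the mural sum. Without control 2 and knockout 1 that r was 0.960. How much RNA of these effectors came from these cells was not tested.

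**Figure D5:**
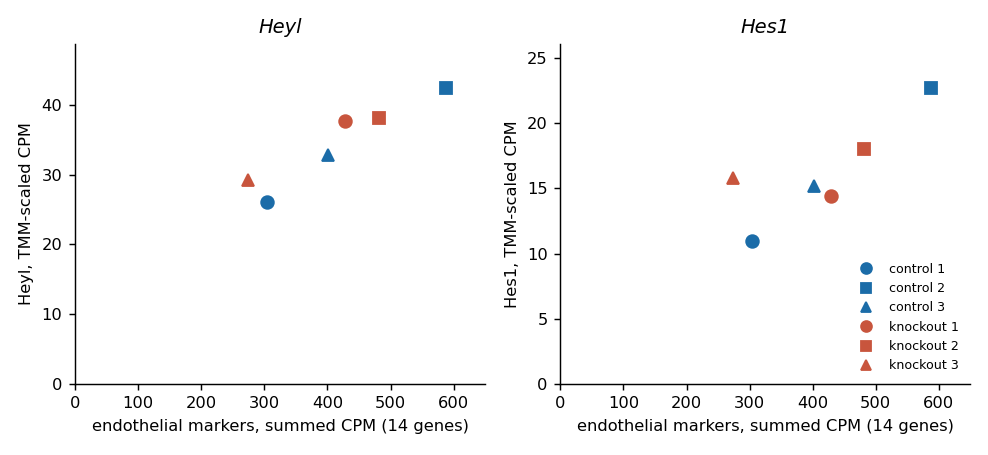
TMM-scaled CPM of Heyl (left) and Hes1 (right) in each embryo against the summed CPM of 14 endothelial markers. Control 2 is highest on all axes and Heyl lies near a line, with controls and knockouts mixed along it. The r of 0.933 over 6 embryos was computed on the log2 scale, whereas the axes are not logged.

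Markers of other tissues were present in all embryos. Mural cell sums (339 to 384 and 295 to 377 CPM in controls and knockouts), periotic mesenchyme sums (2940 to 4213 and 3842 to 4109 CPM) and neuron sums (262 to 1134 and 700 to 875 CPM) overlapped. The same held for glial (907 to 1080 and 840 to 1029 CPM) and macrophage sums (83.5 to 213 and 162 to 215 CPM). Erythroid (1063 to 2163 and 655 to 1789 CPM) and chondrocyte sums (3272 to 4841 and 3013 to 4124 CPM) overlapped too, and 0 genes passed edgeR's test in any of these lists. Hba-a1 and Hba-a2 had identical reads in every embryo and both enter the erythroid sum, which therefore holds these reads more than once. Pigment cell sums overlapped as well (470 to 733 and 441 to 534 CPM), with 0 of 11 past the test, but 10 of 11 markers were negative with a median of -0.54. Of the 11, 6 had an unadjusted p under 0.05, all lower in knockouts, beside 4.77% of all genes. Control 1 was lowest in the mesenchyme, neuron and macrophage sums and was also the lowest embryo for Hes1 and Heyl. Heyl had the same order over the 6 embryos as the neuron sum (r = 0.866, exact permutation p = 0.0028, and rho = 1, exact permutation p = 0.0028, both adjusted p = 0.117 over 84 relations), and r was 0.623 without controls 1 and 2.

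Among themselves the effectors formed 21 pairs over the 6 embryos. Hes6 and Nrarp varied together most closely on the log2 CPM scale (r = 0.949, exact permutation p = 0.00556, adjusted p = 0.117), and rho was 0.943 (exact permutation p = 0.0167, adjusted p = 0.175). Without control 2 and knockout 2, r was 0.849. Hes1 and Heyl had r = 0.830 (exact permutation p = 0.0306, adjusted p = 0.214) and rho = 0.771 (exact permutation p = 0.103, adjusted p = 0.357), but r = 0.186 without controls 1 and 2, on which the relation rests. Nrarp and Hes1 ran opposite to each other (r = -0.84, exact permutation p = 0.0306, adjusted p = 0.214; rho = -0.94, exact permutation p = 0.0167, adjusted p = 0.175), with r = -0.99 without control 2 and knockout 2. Hes5 had correlations between -0.64 and 0.31 with the other effectors. No pair passed after adjustment over the 21.

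The genes whose log2 CPM was most like that of each effector over the 6 embryos were taken from those with a mean of at least 10 CPM. They are a description, since 10108 or more genes were compared over only 6 embryos. For Hes5 they were Hars2 (r = 0.970), Pex3 (0.965) and Vamp7 (0.964). For Hes1 they were Rrm2 (r = 0.995), Tbc1d8 and Wdr47, and for Hes6 Gsc (r = 0.987), Aktip and Ldha. Hey1 was most like Dpyd (r = 0.998), Sipa1l1 and Ptprk, and Hey2 most like Pdia3 (r = 0.993), Recql and Frem2. Heyl was most like Eno2 (r = 0.994), Acvrl1 (r = 0.987) and Ggta1, and Nrarp most like Pisd (r = 0.986), Tmprss6 and Aktip. Aktip thus stood near both Hes6 and Nrarp. Genes with r above 0.9 numbered 27 for Hes5, the fewest, and 367 for Hey1, the most.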

How the data were processed

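RNA of 6 embryos was sequenced in 12 libraries. The counts deposited by the authors are reads per RefSeq transcript and embryo, per the file headers, without normalisation, and the libraries of an embryo stand in 1 column. FPKM per embryo, deposited by the authors and relative to length and depth per the file headers, served for levels between genes. The authors' deposited log2 fold changes and p-values with FDR come from edgeR per the file headers. The submitters' processing notes name edgeR and mm10, and which aligner and counter were used is not given in the sources used here. Left aside were 14 other columns. Of 28644 transcript rows, the row with the most reads stood for each gene.

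In edgeR 4.0.16 (R 4.3.3) genes were filtered by filterByExpr at a minimum count of 10, scaled by TMM and tested with the quasi-likelihood F test, with Benjamini-Hochberg adjustment over 14717 genes at 0.05. Standard errors divide the absolute log2 fold change by the root of F. CPM are TMM-scaled, and log2 CPM has a prior count of 2. Relations of effectors to marker sums set log2 CPM against the log2 of the summed CPM. Depth was 12547301 to 21568516 reads per embryo, and count intervals cover counting error only. Alternatives were DESeq2 1.42.0, RLE and upper-quartile scaling, no count filter, every transcript row, limma 3.58.1 on log2(FPKM + 1), a replicate block, Xist as a covariate and embryos left out. The fit was tested on simulated data.

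The 7 effectors and the gene lists were chosen with earlier results of these data known. Named are the 7 effectors, Esrp1, the genes of each pathway list past the threshold or else that with the smallest p, and the 3 genes most like each effector. Cell type markers are given by their sums, with 1 or 2 defining markers for the sensory lists. Other genes in the text, and the marker sums without Gata3 or Oc90, were chosen after the values were seen.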

Additional observations from a re-analysis of the deposited data

How the results depend on the processing

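None of the 7 effectors passed the threshold in edgeR, DESeq2 or limma under any of the 16 alternatives, and Hes5 was negative in each (-1.67 to -0.68). The -0.68 came from limma on log2(FPKM + 1), where 1 is added to Hes5 levels of 0.309 to 2.24 FPKM. In the settings on counts Hes5 lay between -1.67 and -1.09. The count of genes past the threshold over all genes, 22, became 165 in DESeq2, 159 without both embryos numbered 1, 6 with Xist as a covariate, 0 without knockouts 2 and 3 and 0 to 30 with 1 embryo left out (0 without control 3 or knockout 2). With the embryo number as a replicate block it was 6, Hes5 had -1.41 (adjusted p = 0.729, edgeR) and Hes1 turned to 0.030. Same-numbered controls and knockouts share a code in the labels, whose meaning is not given, so a real pairing cannot be told from a shared number. Same-numbered embryos had correlated deviations of 0.077, 0.177 and 0.029, and control 1 correlated best with knockout 3 (0.105).

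Log2 fold changes near 0 changed sign, and the cause was not tested. Hes1 was 0.055 by limma on FPKM, Hey1 0.042 and Heyl -0.16 without both embryos numbered 1. Hes6 was 0.019, Hey2 -0.22 and Nrarp 0.087 with Xist. Without knockouts 2 and 3, where the lone knockout is assumed to vary like the controls, Hey2 was -0.20 and Nrarp 0.058. Both settings compare mainly knockout 1 with the controls, so they are not separate checks. With 1 embryo left out, the ranges were -0.24 to 0.30 for Hes1, -1.63 to -1.09 for Hes5, -0.36 to -0.09 for Hes6, -0.45 to -0.10 for Hey1, 0.05 to 0.37 for Hey2, -0.10 to 0.25 for Heyl and -0.25 to 0.021 for Nrarp. As CPM per kilobase, the control order began with Hes6 (1), Hey1 (2), Hey2 (3) and Nrarp (4). Depth limits Hes5 most, with 14 to 115 reads per embryo.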

Other observations

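Hey1 had the same order over the 6 embryos as the summed chondrocyte list (Pearson r = 0.968 and Spearman rho = 1, exact permutation p = 0.0028 for each, adjusted p = 0.117 over 84 relations), and r was 0.9748 without control 1 and knockout 1. Most of this sum was Col2a1 (2195 to 3656 CPM), a collagen gene that is also expressed outside cartilage. The cartilage genes Acan and Matn1 were highest in knockout 2 (23.8 and 35.2 CPM) and Hey1 in control 1, so not every marker of the list followed that order. None of the 84 relations passed after adjustment.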
